A study of Mus musculus with 4 samples.

Results

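Genes of regulated exocytosis, 9 in all, were followed across mouse islet cells: the SNARE genes Stx1a, Snap25 and Vamp2, the synaptotagmins Syt4, Syt7 and Syt13, the Rab GTPases Rab3a and Rab27a, and the Rab effector Sytl4. They were chosen by name, and all 9 were found among the 32227 genes of the count tables. Insulin granules are carried to the plasma membrane, docked there and fused with it when calcium enters the β cell. SNARE proteins of the granule (Vamp2) and of the plasma membrane (Stx1a, Snap25) zip together to fuse the membranes, synaptotagmins act as calcium sensors or as regulators of that step, and Rab3a and Rab27a mark granules and recruit effectors such as granuphilin, the product of Sytl4, which docks insulin granules at the membrane.

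The islets came from adult mice that were homozygous either for the wild-type Myt3 allele (control) or for an allele with 12 bp inserted into an exon by CRISPR-Cas9, which disrupts an upstream open reading frame of this transcription factor (mutant). The insertion is present in every cell of the mouse and descends from a founder that was outcrossed, and each library pooled islets of several mice of both sexes. The labels give a normal diet and the PIPseq droplet method, whereas the methods of the study give a high-fat diet and inDrop-Seq, and the data do not settle which holds. Single-cell counts of 3 of the 4 labelled libraries were used, mutant 1, mutant 2 and control 2, and control 1 was not analysed here.

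Control 2 stood apart from both mutant libraries. Its kept cells held a median of 14051 UMIs (molecules counted once each), against 2427 and 3852 in mutant 1 and mutant 2, and its batch entry in the labels differs from theirs, so genotype, batch and depth cannot be told apart. After filtering, 2940, 2040 and 2283 cells were kept, and no barcode was shared between libraries. Cells were typed by a hormone share at least 2 times each other share, with under 1% of UMIs from endothelial, stellate and macrophage markers. This gave 1989, 1388 and 1970 β cells (insulin at least 25% of UMIs) in mutant 1, mutant 2 and control 2. There were 250, 193 and 28 α cells (glucagon at least 5%) and 46, 31 and 19 PP cells (pancreatic polypeptide at least 5%). The same limits for somatostatin left only 5, 9 and 16 δ cells, or 21, 30 and 35 if it only had to be the largest hormone share. A wide rule (hormone at least 1% and insulin under 10%), chosen after seeing the data, was added and gave 93, 76 and 34. Markers separated the types other than PP: summed β markers were 7480 to 16161 CPM (scaled counts, defined below) in β cells and 772 to 1818 in α cells, summed α markers 855 to 1357 in α cells and 186 to 495 in β cells, and summed δ markers 1102 to 2039 in δ cells of the wide rule and 23.8 to 38.3 in β cells. The PP markers apart from hormones (Etv1, Meis2) summed to 1289 to 1407 in PP cells but also to 1267 to 1487 in α cells, so PP cells are named by their hormone alone. Levels below are CPM, UMIs per 1000000 UMIs after leaving out hormone and mitochondrial genes. Differences between types are log2 fold changes from edgeR's quasi-likelihood test on UMIs summed per library and type, with Benjamini-Hochberg adjustment over all genes tested. The ± values are SEs derived from that test, the size of the log2 fold change divided by the square root of its F statistic. On few UMIs they can be smaller than counting error. A gene was called at an adjusted p under 0.05. Levels are not compared between genes.

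Sytl4 marked β cells most sharply, and Syt13, Syt4 and Rab3a were also higher in β cells than in α cells, PP cells and δ cells of the wide rule. Over all processing settings, the δ difference of Rab3a was called in only 6 of 19 and ran from -1.91 to -0.27. Those of Syt4 and Syt13 were called in 18 of 19. Of the 8 members that passed the filter on low counts, 4 were lower in α than in β cells, where 17.9% of all 8089 genes tested were, and none was higher, against 12.2% of all genes (30.1% were called in either direction). In PP cells 6 of 8 were lower, against 13.6% of all genes, and none was higher, against 5.02% (18.6% called in all). At an unadjusted p under 0.05 the count of higher members was likewise 0 in both, with edgeR and with DESeq2. In PP cells DESeq2 called 4 of 8 members lower in place of 6, where it called 432 of 8089 genes lower. The median difference of the tested members was -0.83 in α cells and -1.03 in PP cells, beside -0.11 and -0.24 over all genes. These counts and medians include Sytl4, which passed the filter only through its β sums and so could only be called lower.

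**Figure D1:**
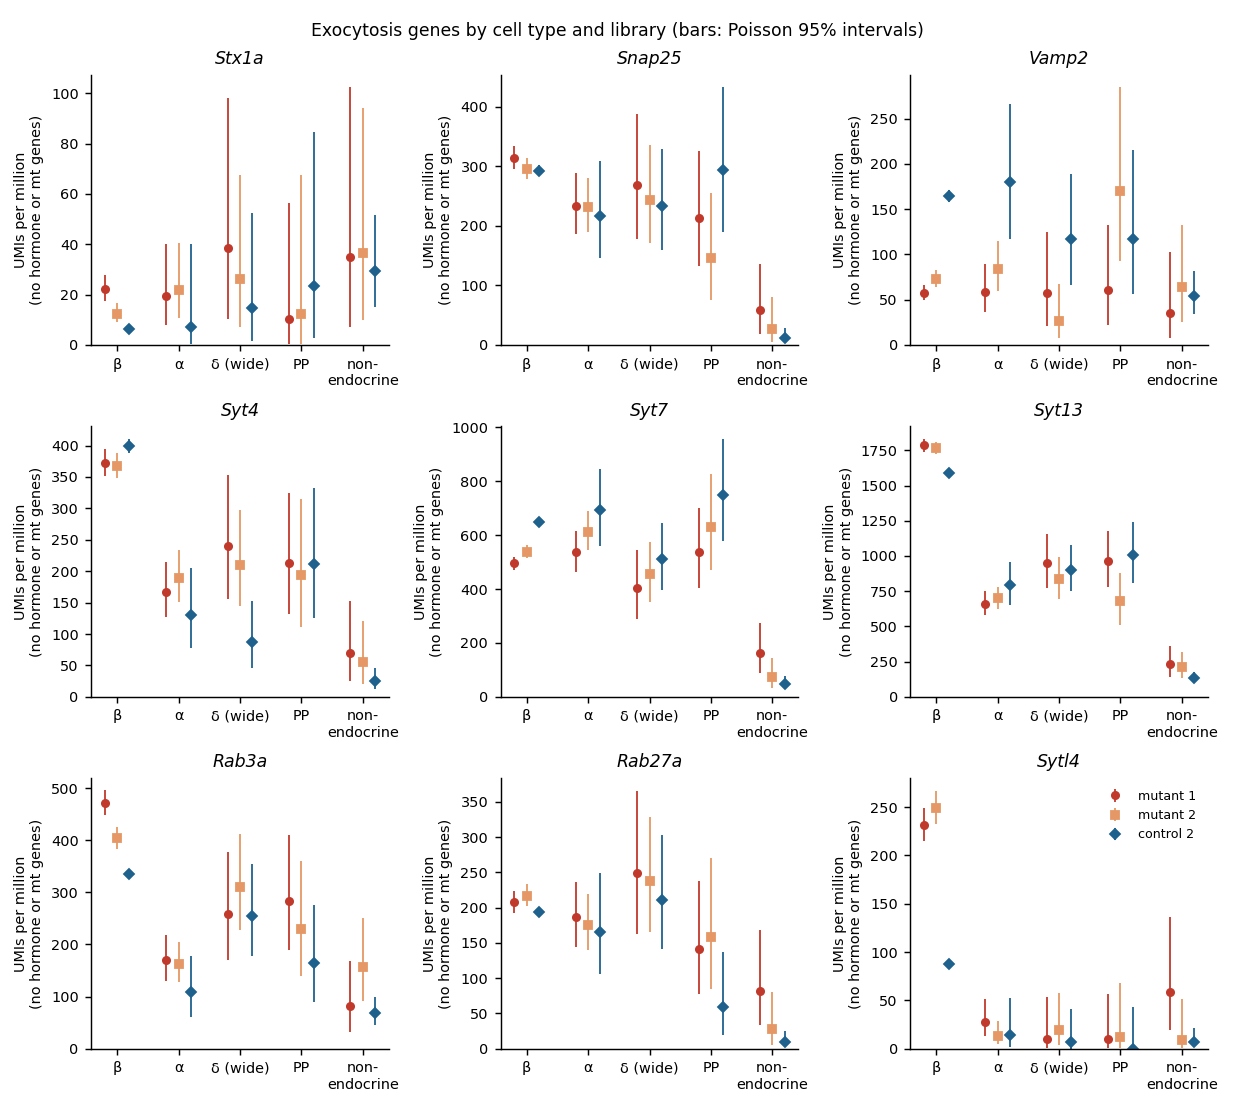
Level of each of the 9 genes (vertical axis, CPM without hormone and mitochondrial genes) in β, α, δ (wide rule), PP and non-endocrine cells; points are the 3 libraries and bars are Poisson 95% intervals. Sytl4, Syt13, Syt4 and Rab3a stood highest in β cells, and Syt7 and Vamp2 stood at like levels in β and α cells of each library.

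Promoter sequences are shown for Sytl4 and Rab3a, members that stood lower in α and PP cells than in β cells, and are the part of each RefSeq window (GRCm38.p6) that lies upstream of both the RefSeq and the GENCODE start of the gene. The promoter table matched 4 of the 9 members. Its build is not that of the count tables. Capitals mark the GC box GGGCGG, searched on both strands.
Sytl4, chrX:133981822-133982062, minus strand: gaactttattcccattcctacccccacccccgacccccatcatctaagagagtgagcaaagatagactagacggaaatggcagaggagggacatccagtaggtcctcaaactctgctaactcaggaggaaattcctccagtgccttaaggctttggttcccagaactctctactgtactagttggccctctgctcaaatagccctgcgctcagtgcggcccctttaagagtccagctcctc
Rab3a, chr8:70754453-70754678, plus strand: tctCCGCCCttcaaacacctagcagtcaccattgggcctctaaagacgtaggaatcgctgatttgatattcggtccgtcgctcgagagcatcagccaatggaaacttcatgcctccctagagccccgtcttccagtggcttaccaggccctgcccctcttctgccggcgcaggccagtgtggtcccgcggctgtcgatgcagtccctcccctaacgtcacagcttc
The GC box lay at 1 place in the Rab3a sequence, on the reverse strand. Over whole windows of the table it was found in 1 of 2 windows of Rab3a, not in that of Sytl4, and in 35.7% of all 32851 windows. Neither gene's windows held the cAMP response element TGACGTCA (1.79% of all windows) or the TATA box TATAAA (13.6%). A match is a description of letters only.

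Sytl4 (chrX:133936385-133981812, minus strand, GENCODE annotation of GRCm38) encodes the granule-docking effector of Rab27a. In β cells it was at 232, 249 and 87.9 CPM in mutant 1, mutant 2 and control 2 (755, 867 and 1155 UMIs). In α cells it was at 27.8, 13.2 and 14.4 (10, 6 and 2 UMIs), so that every library's α cells lay below its β cells. Its difference between α and β cells was -3.51 ± 0.30, an 11.4-fold lower level. Sytl4 passed the filter on low counts through its β sums alone, so its call as lower is a description and adds no support. PP cells held 1, 1 and 0 UMIs, where their own libraries' β level would have given 50.9 UMIs in all, a ratio of 25.5 with a 95% counting interval from 7.05 to 210.2. δ cells of the wide rule held 1, 3 and 1 UMIs, against 74.1 at the β level, a ratio of 14.8 (6.35 to 45.7). These counts show β cells apart in all 3 libraries. Non-endocrine cells held 58.4, 9.19 and 7.36 CPM on 5, 1 and 3 UMIs. Whether this was free RNA or their own expression was not tested. At this depth Sytl4 in α, δ and PP cells was not distinguishable from the level of non-endocrine cells.

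Among the synaptotagmins, Syt13, which lacks the calcium-binding residues of the calcium sensors, was at 1787, 1765 and 1589 CPM in β cells (the libraries again in the order mutant 1, mutant 2, control 2). Its α-cell levels were 661, 701 and 794, and the ranges did not overlap. The difference was -1.31 ± 0.17 in α cells (adjusted p = 2.5e-07) and -1.17 ± 0.18 in PP cells (adjusted p = 1e-05), whose levels were 963, 679 and 1007. Syt4, a synaptotagmin linked to granule maturation, was at 373, 368 and 400 in β cells and at 167, 189 and 130 in α cells. In PP cells it was at 213, 194 and 211. The difference was -1.22 ± 0.19 in α cells (adjusted p = 5.2e-06) and -1.10 ± 0.23 in PP cells (adjusted p = 0.00061). Both genes were higher in β cells in each of the 3 libraries.

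Syt7, a high-affinity calcium sensor of insulin and glucagon release, did not follow them. It was at 496, 539 and 648 in β cells, 536, 613 and 693 in α cells and 537, 631 and 750 in PP cells. Within each library the α and PP levels lay slightly above the β level on this scale, and in the test the difference was 0.09 ± 0.16 in α cells (adjusted p = 0.75) and -0.03 ± 0.18 in PP cells (adjusted p = 0.95), with no call.

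Rab3a (chr8:70754679-70758677, plus strand), a GTPase of secretory granules, was at 472, 404 and 335 in β cells, at 169, 163 and 108 in α cells and at 284, 230.5 and 164 in PP cells. The difference was -1.48 ± 0.19 in α cells (adjusted p = 1.6e-07) and -1.05 ± 0.22 in PP cells (adjusted p = 0.0006), and in each library both types lay below β cells. Non-endocrine cells were at 81.7, 156 and 68.7 CPM (7, 17 and 28 UMIs). Their counting intervals overlapped those of α cells in every library, and those of PP cells in mutant 2 and control 2. Whether their Rab3a UMIs are free RNA was not tested. The last bases of Rab3a overlap Mpv17l2 on the other strand, and reads there may be shared. Rab27a, the GTPase that binds granuphilin, was at 208, 217 and 194 in β cells and at 186, 176 and 166 in α cells. It did not pass the test in α cells (-0.29 ± 0.20, adjusted p = 0.29), but was lower in PP cells, at 142, 158 and 58.6 (-1.004 ± 0.27, adjusted p = 0.0079).

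Among the SNARE genes, Snap25 was at 314, 295 and 293 in β cells and at 233, 231 and 217 in α cells. The difference of -0.43 ± 0.19 was not called (adjusted p = 0.082), although the α level lay below the β level in every library. In PP cells Snap25, at 213, 146 and 293, was called lower (-0.69 ± 0.23, adjusted p = 0.035), but that call was lost with library sizes that leave out hormone and mitochondrial genes (-0.47, adjusted p = 0.19). Vamp2 was at 57.7, 72.8 and 164 in β cells and at 58.3, 83.6 and 180 in α cells of mutant 1, mutant 2 and control 2. It differed from library to library more than from type to type, with a difference of 0.05 ± 0.23 in α cells (adjusted p = 0.90) and 0.04 ± 0.32 in PP cells (adjusted p = 0.95). Stx1a was too low for the test: its β cells held 72, 43 and 85 UMIs, or 22.1, 12.4 and 6.47 CPM. These levels lay below the 35.0, 36.7 and 29.5 CPM of non-endocrine cells. Whether the β-cell UMIs are background was not tested.

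For δ cells the planned rule left 1 sum, that of control 2 with 16 cells, and there Syt4 (-2.13 ± 0.47, adjusted p = 0.0033) and Syt13 (-1.35 ± 0.31, adjusted p = 0.0045) were lower than in β cells, 2 of 8 members against 3.35% of all genes, with none higher against 2.16% (5.51% called in all). With the wide rule and all 3 libraries, 6 of 7 tested members were lower, against 28.1% of 4063 genes, and none was higher, against 8.52% (36.6% called in all). Syt4 (-1.52 ± 0.25), Syt13 (-1.32 ± 0.16) and Rab3a (-0.91 ± 0.18) were also called with library sizes that leave out hormone and mitochondrial genes, at -1.13, -0.94 and -0.53. Syt7 (-0.68 ± 0.16), Snap25 (-0.66 ± 0.20) and Vamp2 (-0.98 ± 0.33) were not, at -0.30, -0.28 and -0.59 with adjusted p = 0.13, 0.29 and 0.18. That scaling moved the median of all genes from -0.31 to 0.07, so these 3 calls rest on the scale. Syt4 in δ cells was at 240, 211 and 87.4 CPM in mutant 1, mutant 2 and control 2, and Rab27a was at 249, 237 and 211, near its β level. Sytl4 did not pass the filter in this fit and is given by its UMIs above.

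**Figure D2:**
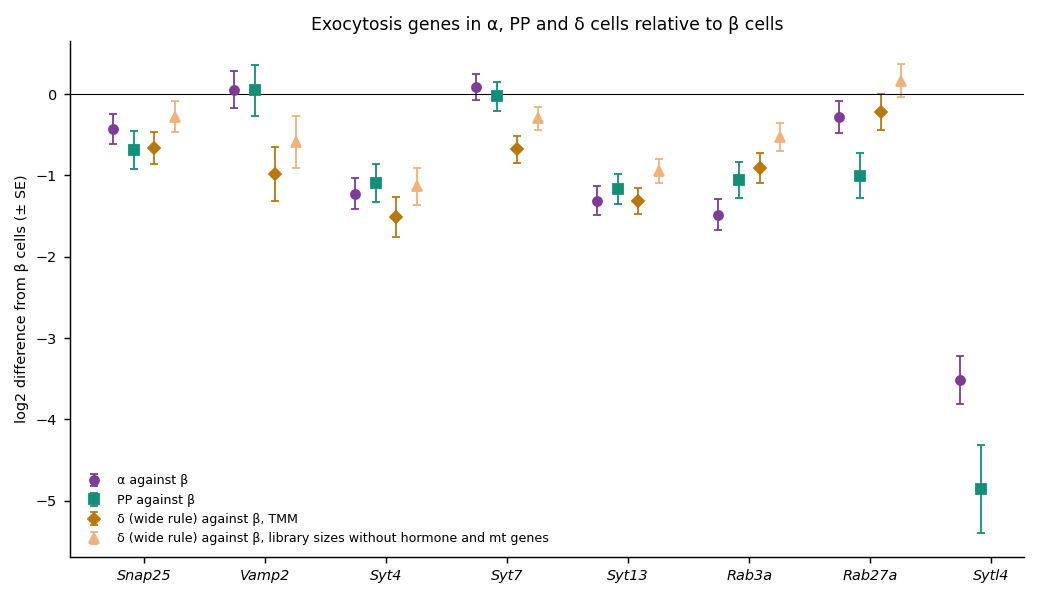
Log2 difference from β cells (vertical axis, ± SE derived from edgeR's F statistic) of 8 genes in α and PP cells (planned rule) and in δ cells (wide rule, under 2 scalings). Sytl4 was filtered out of the fit with the wide rule. Sytl4 lay at -3.51 in α cells and -4.86 in PP cells, and Syt7 and Vamp2 lay near 0 in both. The PP value of Sytl4 was fitted on 2 UMIs, and its SE is smaller than counting error.

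Between the other types few member differences passed the test. Over the 3 pairs without β cells edgeR called none of the 8 members under the planned rule. Of all genes it called 2.76% in δ against α cells (1.57% higher, 1.19% lower), 2.24% in PP against α cells (0.643% higher, 1.59% lower) and 1.88% in PP against δ cells (0.593% higher, 1.29% lower). At an unadjusted p under 0.05 there were 4 member differences over these pairs, and DESeq2 called 0. With the wide rule Syt7 was lower in δ than in α cells (-0.67 ± 0.17, adjusted p = 0.0065), where 10.7% of all genes were (6.6% were higher and 17.3% called in all), and with the other scaling the difference was -0.41 (adjusted p = 0.063).

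The wider machinery went both ways. Of 81 companion genes in the tables (other SNAREs, their regulators, other synaptotagmins and Sytl genes, other Rabs and effectors, and the exocyst), 55 passed the filter, and in α cells 11 were higher and 9 lower than in β cells, with a median of -0.04, beside 12.2% higher, 17.9% lower and a median of -0.11 over all genes. In PP cells 9 were higher and 9 lower, with a median of -0.25, beside 5.02% higher, 13.6% lower and a median of -0.24 over all genes. Among those higher in α cells were relatives of 3 members. Rab3c, a relative of Rab3a, was at 100, 119 and 108 CPM in α cells of mutant 1, mutant 2 and control 2 and at 5.21, 9.21 and 3.35 in β cells (4.20 ± 0.34, adjusted p = 2.5e-12), and Rab27b, the paralog of Rab27a, was higher by 4.13 ± 0.57 (adjusted p = 5.2e-07, 13, 13 and 15 UMIs in α cells). Sytl2, a relative of Sytl4, was higher by 2.82 ± 0.73 (adjusted p = 0.0030) on 2, 12 and 4 UMIs. All 3 were also higher in PP cells, at 3.55 ± 0.52, 3.67 ± 0.84 and 3.73 ± 0.88 for Rab3c, Rab27b and Sytl2. None of these 3 passed the low-count filter through β sums, so against β cells each could only be called higher. Their calls are descriptions that add no support, and the counts above include them. δ cells of the wide rule held no UMI of Rab27b or Sytl2.

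On the β side were Rims3, an active zone protein (-3.03 ± 0.34 in α cells and -3.05 ± 0.52 in PP cells), Rab3d, another relative of Rab3a (-2.14 ± 0.26 in α cells), Madd, an exchange factor for Rab3 proteins (-2.01 ± 0.20 in α cells and -1.92 ± 0.24 in PP cells), and Myo5a, a granule motor (-2.22 ± 0.53 in PP cells). Rims3 passed the low-count filter through β sums. Calls of genes this low on either side, also those of δ cells below, are descriptions and add no support. δ cells of the wide rule were marked by Stxbp5l, which binds syntaxin (3.97 ± 0.46), Syt1, the calcium sensor of fast neuronal release (3.48 ± 0.30), and Rab3b (1.94 ± 0.21), and they held little Cadps, a granule-priming factor (-3.35 ± 0.29, 6, 8 and 4 UMIs); Rab3d (-1.64 ± 0.28) and Madd (-1.37 ± 0.18) were lower too. In the planned contrast with 1 δ sum the same 3 genes led upwards, and Rims3 (0 UMIs), Cadps (1 UMI) and Pclo (6 UMIs) were lowest.

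Across the 10 sums of library and type, centred within library, the genes whose log2 level went most closely with each member were Glp1r, Mir670hg and Ndufa3 for Sytl4 (highest Pearson r 0.98), Hapln4, Iqgap1 and Ube2v1 for Syt13 (0.995), Fnip2, Fam222a and Gm49980 for Stx1a (0.97, on few UMIs), Mettl9, Macf1 and Sdf2l1 for Syt4 (0.98), and Ganab, Selenom and Sh3pxd2a for Rab3a (0.99). For Syt7 they were Rgs7bp, Zfp804b and Cadps (0.99), for Rab27a Eif3c, Pdap1 and Acaa1a (0.99), for Snap25 Dtnb, Atp6v1g1 and Derl1 (0.97), and for Vamp2 Cdc42, Cct7 and Fbl (0.93). These are descriptions over sums that share libraries, and were searched among 2607 genes. Outside β cells each Sytl4 sum held 10 UMIs or fewer.

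Between libraries, β cells held more Sytl4 and less Vamp2 in either mutant library than in control 2, and of the other members with a mean of at least 20 CPM none stayed past 0.5 (log2) one way under every scaling. That minimum was taken on the scale of each setting, which is TMM-scaled CPM of all UMIs in the main one. With TMM scaling the log2 ratio to control 2 of Sytl4 was 1.19 in mutant 1 and 1.24 in mutant 2, or 2.28-fold and 2.37-fold. That of Vamp2, at 188, 253 and 2159 UMIs in mutant 1, mutant 2 and control 2, was -1.71 and -1.43. Syt7 passed the limit of 0.5 only just (-0.59 and -0.53). Thus 1 of 8 members with at least 20 CPM was higher in both, where 14.6% of 4699 genes were, and 2 of 8 were lower, against 31.7%, so neither count stands out from the background. With CPM of all UMIs the background was 40.9% higher and 12.0% lower. With 1 control library there is no test of genotype.

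Stx1a, with a mean of 5.83 TMM-scaled CPM of all UMIs, was under that minimum and was not counted. Its ratio was 1.55 and 0.66 on 72, 43 and 85 UMIs. The ratio was past 0.5 in both mutant libraries under all 4 scalings of the whole set of β cells, but 0.98 and 0.24 after thinning. Its β level lay below that of non-endocrine cells in control 2, and the counting intervals overlapped in the mutant libraries. The other ratios in mutant 1 and mutant 2 were Syt4 -0.31 and -0.38, Syt13 -0.03 and -0.11, Snap25 -0.10 and -0.25, Rab3a 0.29 and 0.01, and Rab27a -0.10 and -0.10. The median of all genes was -0.18 and -0.21, and CPM of all UMIs moved it to 0.40 and 0.40, with Rab3a then at 0.85 and 0.59, Syt13 at 0.52 and 0.47 and Syt7 at -0.03 and 0.05. Sytl4 lay 1.37 and 1.46 above the median of all genes with TMM and 1.35 and 1.43 above it with CPM, and Vamp2 lay 1.53 and 1.22 below it with TMM.

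**Figure D3:**
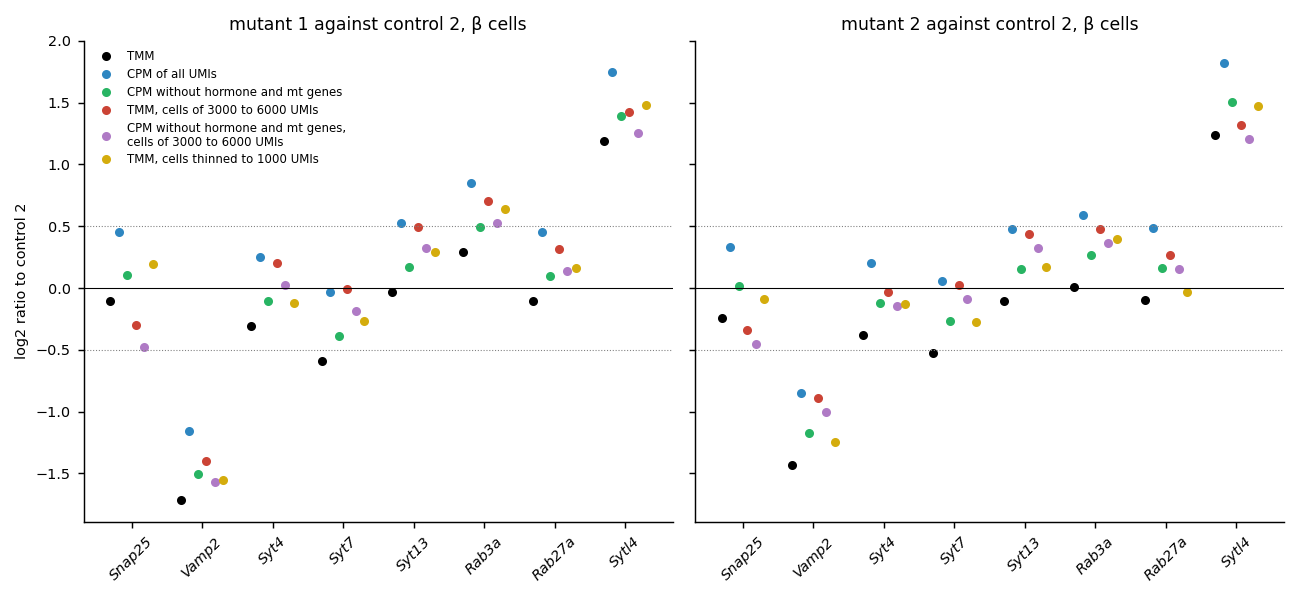
Log2 ratio to control 2 in β cells (vertical axis) of mutant 1 (left) and mutant 2 (right) for 8 genes under 6 scalings and depth settings; dotted lines mark ratios of 0.5 either way. Sytl4 lies above 1 and Vamp2 below -0.8 at every setting shown. Rab3a lies above 0 throughout, up to 0.85 and 0.59, Syt7 of mutant 1 lies from -0.59 to -0.01, and the other values change sign with the setting.

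Matching depth left both. In β cells of 3000 to 6000 UMIs (813, 609 and 248 cells) Sytl4 was at 243, 235 and 99.7 CPM in mutant 1, mutant 2 and control 2, and Vamp2 at 53.2, 79.1 and 160, whereas the Syt7 ratio was -0.01 and 0.02 with TMM. Over all depth bins of at least 20 cells, Sytl4 ranged from 210 to 270.5 in the mutant libraries and from 52.0 to 99.7 in control 2, and Vamp2 from 43.2 to 96.9 and from 126 to 167. The exception was mutant 1 above 12000 UMIs, with only 8 cells, where Sytl4 was at 108 (5 UMIs) and Vamp2 at 172 (8 UMIs).

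**Figure D4:**
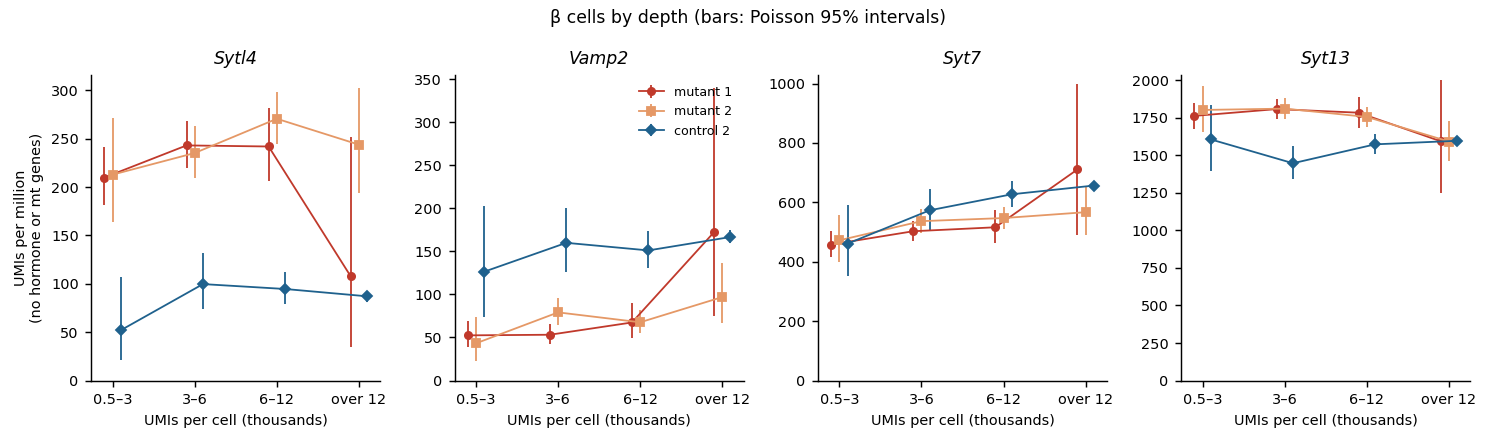
Level of Sytl4, Vamp2, Syt7 and Syt13 in β cells (vertical axis, CPM without hormone and mitochondrial genes) by depth per cell (horizontal axis) in the 3 libraries, with Poisson 95% intervals. Sytl4 of control 2 stays between 52.0 and 99.7, below both mutant libraries in each bin, and in the last bin mutant 1 holds only 8 cells.

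Counted per cell after thinning each to 1000 UMIs, a Sytl4 UMI was found in 10.8% (95% interval 9.40 to 12.3), 10.9% (9.25 to 12.7) and 3.20% (2.47 to 4.07) of β cells in mutant 1, mutant 2 and control 2, with 163, 64 and 0 cells left out as too shallow. Without thinning the shares were 29.8%, 40.8% and 38.9%. In thinned non-endocrine cells the shares were 2.86%, 0% and 1.61%, on 1, 0 and 1 cells of 35, 48 and 62. The interval in control 2 (0.0408 to 8.66%) is too wide to set its β cells apart. On full counts, Sytl4 in control 2 was at 87.9 CPM (82.9 to 93.2) in β cells. In its non-endocrine cells it was at 7.36 CPM (1.52 to 21.5). A Vamp2 UMI was found in 2.79%, 3.63% and 6.95% of thinned β cells and in 0 of 35, 2 of 48 and 2 of 62 non-endocrine cells. Unlike the intervals above, the upper limit for 0 of 35, 8.57%, is 3 divided by the number of cells.

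Other values moved with these ratios, and their part in them was not tested. Insulin took a median of 40.9%, 42.9% and 55.3% of β-cell UMIs in mutant 1, mutant 2 and control 2. Of the 7 β markers, Mafa, Nkx6-1, Slc2a2, Ucn3, Ero1b and Pdx1 were higher in both mutant libraries and G6pc2 lower, and their sum was 16161, 15226 and 7480 CPM. Non-endocrine cells held 0.0924, 0.0492 and 0.0270 of the insulin level of β cells. Of the Vamp2 level of β cells they held 0.608, 0.884 and 0.329, and how much of this is free RNA was not tested.

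Companion genes in β cells again went both ways, with 5 of 34 higher in both mutant libraries and 9 lower, beside 14.6% and 31.7% of all genes, so these counts are near the background. Among the highest were Cplx2, a complexin that clamps SNARE complexes (1.43 and 1.24), and Rab37, a Rab of secretory granules (0.81 and 0.93). The lowest were Rab3d (-1.999 and -1.76), Stxbp6, a SNARE-binding protein (-1.55 and -1.45), and Myo5a (-1.51 and -1.12).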

How the data were processed

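The authors deposited droplet single-cell counts: per the methods, reads were preprocessed with DropEst, and the matrices hold whole UMI counts per gene and cell; the submitters' processing notes name GRCm39 and Seurat. Cells with at least 500 UMIs, at least 100 genes and at most 10% mitochondrial UMIs were kept. The δ rule at 1% somatostatin was added after seeing the data. Types needed a hormone share at least 2 times each other share and under 1% of UMIs from endothelial, stellate and macrophage markers. The wide rule did not compare the hormone with insulin, which only had to be under 10%. Its δ cells held a median of 5.07%, 5.05% and 4.73% insulin in mutant 1, mutant 2 and control 2. Their median somatostatin was 3.78%, 4.72% and 10.0%. No doublet caller was used. Under the planned rule cells of mixed hormones stayed unassigned, and leaving out the deepest 5% of cells was an alternative. Sums of at least 10 cells entered edgeR 4.0.16 (R 4.3.3; quasi-likelihood, TMM, low-count filter, library as a block), tested on simulated data. With the library as a block, p-values measure how differences between types vary over these libraries. They do not measure the spread of levels between libraries. The planned δ contrasts hold 1 δ sum, so their p-values borrow the spread of the other types and measure none between δ sums. β-cell ratios used TMM-scaled CPM with a prior count of 1. Poisson and Clopper-Pearson intervals cover counting error only. The members and gene lists were chosen with earlier results of these data known. Named companion genes are the 3 with the largest call each way per contrast with β cells, and the 3 highest and 3 lowest past 0.5 in both mutant libraries; 1 gene that this rule names is not reported here. The 2 mutant β sums differed beyond sampling noise (chi-square per degree of freedom 4.20).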

Additional observations from a re-analysis of the deposited data

Results flagged for a closer look

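In 2 results the PP-to-β difference had one sign in both mutant libraries and the other in control 2, and the difference between genotypes was not tested. Snap25 was at -0.53 and -0.96 in mutant 1 and mutant 2 and at 0.029 in control 2 (log2, on 21, 12 and 25 PP-cell UMIs). Vamp2 was at 0.19 and 1.27 in mutant 1 and mutant 2 and at -0.42 in control 2, on 6, 14 and 10 PP-cell UMIs. For both genes the counting interval of PP cells in control 2 held the β level of that library, so the sign there is not settled.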

How the results depend on the processing

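Sytl4, Syt13, Syt4 and Rab3a were called lower in α than in β cells under every setting that gave a test of them (16 for Sytl4 and 21 for the others). In the main fit Sytl4 passed the low-count filter through its β sums alone. Settings of the wide rule, β cells of 10% insulin, and depth matching joined to another scaling were chosen after seeing the data, and the cause of the changes below was not tested. Libraries hold all types, so the library was the block; with no replicate block the calls over all genes fell from 2435 to 894 in α, 1508 to 566 in PP and 446 to 126 in δ cells against β cells. The count of members lower in PP than in β cells was then 3 in place of 6, with adjusted p = 0.075 for Rab3a and 0.098 for Rab27a. Of all 8089 genes, 373 were then lower in PP cells in place of 1102. No paired analysis was possible between genotypes because 1 control library was used. Without mutant 1 or mutant 2 the calls in α cells were 1184 and 952. The planned count of members lower in δ than in β cells rested on 1 δ sum and fell with no replicate block and after thinning. It was 5 with the largest hormone share, beside 1043 of 4272 genes, and 6 with the wide rule, beside 1143 of 4063. Without control 2 the wide rule also gave 6 (1277 of 6679 genes), and with no low-count filter 7 (1402 of 25342). In δ against α cells 1 member was lower with the largest hormone share (415 of 4272 genes) and with the wide rule (433 of 4063). The wide rule also gave 1 with no low-count filter (483 of 25342) and without control 2 (608 of 6679). With the wide rule and library sizes without hormone and mitochondrial genes, 1 member was higher in δ than in α cells (468 of 4063 genes). In that setting 1 was also lower in PP than in δ cells (299 of 4063). In β cells 2 members were higher in the mutant libraries with CPM of all UMIs (40.9% of all genes) and with means over cells (35.7%). Lower members were 1 with those 2 settings, with DESeq2 size factors, at 3000 to 6000 UMIs, after thinning and at a doubled insulin minimum. They were also 1 with CPM without hormone and mitochondrial genes, for all β cells and at 3000 to 6000 UMIs. Across these settings 12.0% to 28.6% of all genes were lower. Values near 0 changed sign. Syt7 in α against β cells was -0.0076 with the largest share, -0.010 with the wide rule and -0.011 with it and no low-count filter, -0.031 at a 4-fold hormone share and -0.084 after thinning, and -0.077 without mutant 2 to 0.14 without control 2. Vamp2 there was -0.054 with no replicate block, -0.013 with the largest share, -0.072 at a 4-fold share, -0.20 at doubled minimum and -0.28 after thinning, and -0.12 without mutant 2 to 0.11 without control 2. Rab27a in δ against β cells was 0.15 with DESeq2 size factors, 0.21 with sizes without hormone genes (0.17 with the wide rule), 0.16 with DESeq2 and 0.084 at doubled minimum. Syt7 in PP against β cells was 0.19, 0.18 (0.17) and 0.19 under the first 3 of these. Vamp2 there was -0.012 with no replicate block, -0.041 with the largest share, -0.14 at doubled minimum, -0.84 after thinning, -0.64 without mutant 2 to 0.56 without control 2, -0.021 with the wide rule, -0.019 with it and no filter, and -0.028 and -0.33 with it without mutant 1 and mutant 2. The Syt7 β-cell ratio was 0.011 with CPM of all UMIs and 0.0061 at 3000 to 6000 UMIs. Depth limits Sytl4 and Stx1a outside β cells, and any member in δ and PP cells of few UMIs.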
